A study of Gallus gallus with 65 samples.

Results

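The AP-1 and other leucine zipper factors of this array were the 36 gene probes, of 1507, whose names belong to the FOS, JUN, BATF, ATF, CREB, CREM, MAF, NFE2, BACH, NRL, PAR, XBP1 and DDIT3 names; names that start with CEBP were left out. They were chosen by name. They were also grouped by name, into 7 AP-1 genes, 12 CREB/ATF genes, 11 MAF/NFE2 genes, 4 PAR genes (with NFIL3 counted among them) and 2 stress factors. No gene probe carried the name JUND, so JUND was not analysed here.

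The tissue was the sensory epithelium (SE) of the utricle, which senses gravity in the inner ear of the chick, with its sheets of hair cells and supporting cells. Utricles were cultured with neomycin, an aminoglycoside antibiotic that kills hair cells, for 24 hr, and the SE was collected at once (0 hr) or after 24 hr or 48 hr of recovery without the drug. Each of the 65 arrays set a neomycin sample against a control cultured for the same time without the drug, in 2 dyes. There were 3 biological replicates at each time point, each from several pooled epithelia, with 4 to 11 arrays each, and 25, 21 and 19 arrays in all at 0, 24 and 48 hr. Every value below is the log2 ratio of neomycin over control in a biological replicate, and below 0 means less RNA in the treated SE. The RNA was amplified before labelling, and all cells of the SE were measured together, so that fewer cells of a type and less RNA per cell cannot be told apart. The probes were oligonucleotides designed on human genes, read here with chicken RNA, and gene names are those of the array. By symbol, 23 of the 36 members were found in the reference gene list. ATF5, ATF6, BACH2, CREB3, CREBL1, DBP, DDIT3, FOSB, FOSL1, JUNB, NFE2, NFE2L3 and NRL were not. CREBL1 is an older name, and why the other symbols were missing was not examined. Which chicken RNA these probes read was not tested.

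Leucine zipper factors bind DNA as pairs. FOS and JUN proteins pair to form AP-1, an early response to injury, growth signals and stress. CREB and ATF proteins answer to cyclic AMP, calcium and stress kinases. The small MAF proteins pair with NFE2-type and BACH proteins at antioxidant response elements, and the PAR proteins take part in daily rhythms. XBP1 and DDIT3 act in the response to unfolded protein. AP-1 and stress kinase signalling have long been studied in hair cells exposed to aminoglycosides.

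Most of the probes were dim. Brightness was taken as the geometric mean of the foreground in both dyes, with local background included. Its median over the arrays was compared between probes only as a measure of detection. It also depends on how well each human probe binds. JUNB, an AP-1 subunit induced early by many stimuli, stood 5th of 1507 with a brightness of 20693. JUN followed at 1581, CREM at 1439, BACH2 at 1438, FOSB at 1062 and FOSL1 at 874. The other 30 members lay between 416 (NFE2) and 774 (ATF4), while the median of all gene probes was 634.8. In all, 5 of 36 members (13.9%) were brighter than 1000, against 17.0% of all gene probes. A set of 11 spot names that start with CE or MT and match no gene, presumed to be the control oligonucleotides, had a median brightness of 609.5, and 17 of 36 members (47.2%) were above it, against 54.9% of all gene probes. These spot names ran from 417.9 to 695.0. Only JUNB, JUN, CREM, BACH2, FOSB, FOSL1, ATF4 and NRL were above the highest, so that DDIT3, CREB3, TEF, FOS and MAFK lay within their range. The probe of TEF had a Cy3 signal 1.42 times its local background and a Cy5 signal 1.06 times it, and that of FOS 1.95 and 1.79 times. JUNB reached 35.7 times for Cy3 and 29.3 times for Cy5, and 35 of its 260 spot readings, on 19 arrays, were at the scanner's ceiling.

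**Figure D1:**
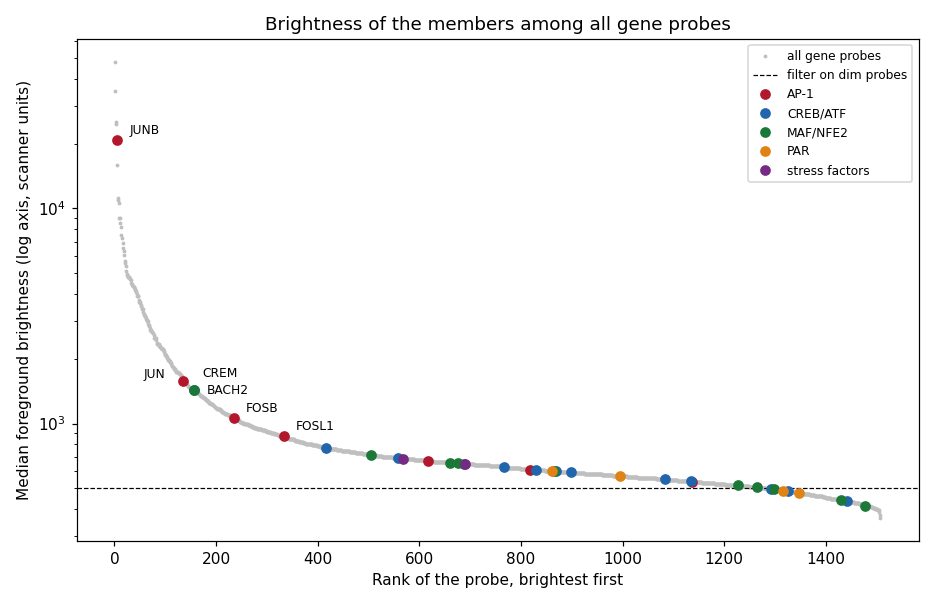
Median foreground brightness of each gene probe (vertical log axis, scanner units) against its rank, brightest first (horizontal axis). Grey points are all 1507 gene probes, coloured points the 36 members by group, and the dashed line the filter on dim probes. JUNB stands apart at 20693 and 30 members lie below 800.

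The dimmest 15% of the gene probes, those with a brightness under 499.3, were not tested. This left 1281 probes, with 28 members: all 7 AP-1 genes, 9 CREB/ATF genes, 8 MAF/NFE2 genes, 2 PAR genes and both stress factors. ATF2, ATF3, ATF6, BACH1, NFE2, NFE2L3, DBP and HLF were too dim, with brightness from 416 (NFE2) to 495 (ATF3), and MAF was just inside the filter at 505. Values for these 8 come from the same fit without the filter and are said to do so. The filter did not order the members by signal over local background. Among those removed, ATF2 had a Cy3 signal 2.14 times its local background and a Cy5 signal 1.56 times it. NFE2, also removed, had 1.57 and 1.24 times. Of the tested members, CREB3 had 1.70 and 1.31 times and TEF 1.42 and 1.06 times.

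How far the arrays repeat each other limits all that follows. Names in the file headers put the neomycin RNA in Cy3 on 34 arrays and in Cy5 on 31, and after each ratio was turned to neomycin over control, arrays of the same replicate and dye orientation correlated at a median r of 0.22 over the tested probes. Arrays of a replicate with opposite orientation correlated at a median r of -0.062, the lowest at -0.53. The direction of the ratios is that of the header names, and the deposited series table carries the same sign on every array. Biological replicates of a time point, each averaged equally over both orientations, correlated at a median r of 0.024, and those of different time points at 0.13. These correlations run across probes, which are not independent replicates.

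No member passed the test at any time point. With limma and Benjamini-Hochberg adjustment over the 1281 probes, 0 of 28 members had an adjusted p under 0.05 at 0 hr (0% of all tested probes did), 0 of 28 at 24 hr (0%) and 0 of 28 at 48 hr (0%). In the mean over the 3 time points, which uses all 9 replicates, 0 of 28 members passed, against 5 of all tested probes (0.39%). For the differences between time points, 0 of 28 members passed for 24 against 0 hr (0%), 0 for 48 against 24 hr (0%) and 0 for 48 against 0 hr (0%). Without adjustment, at a p under 0.05, limma gave 1 member at 0 hr, TEF (6.4% of all tested probes). It gave 2 at 24 hr, DDIT3 and CREB3 (5.93%), and 2 at 48 hr, JUNB and NRL (7.42%). In the mean it gave 3, NRL, MAFK and CREM (12.2%). Of these, DDIT3, CREB3, JUNB and NRL were not found by symbol in the reference gene list, while TEF, MAFK and CREM were. Under the limits of fold and p that the methods name, over 1.2-fold with an unadjusted p under 0.05, the count was 0 of 28 at 0 hr (3.12%), 1 of 28 at 24 hr (DDIT3; 2.73%) and 0 of 28 at 48 hr (2.89%). The methods' one-sample test, run on the 3 replicates of each time point, gave the same counts of 0, 1 and 0 at these limits. It gave 0 members after Benjamini-Hochberg adjustment. Run over the single hybridisations it gave 0 at each time point at these limits and 0 after adjustment. The intensity cut-off of the methods, and their rule on a shared trend across hybridisations, were not applied in these counts.

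**Figure D2:**
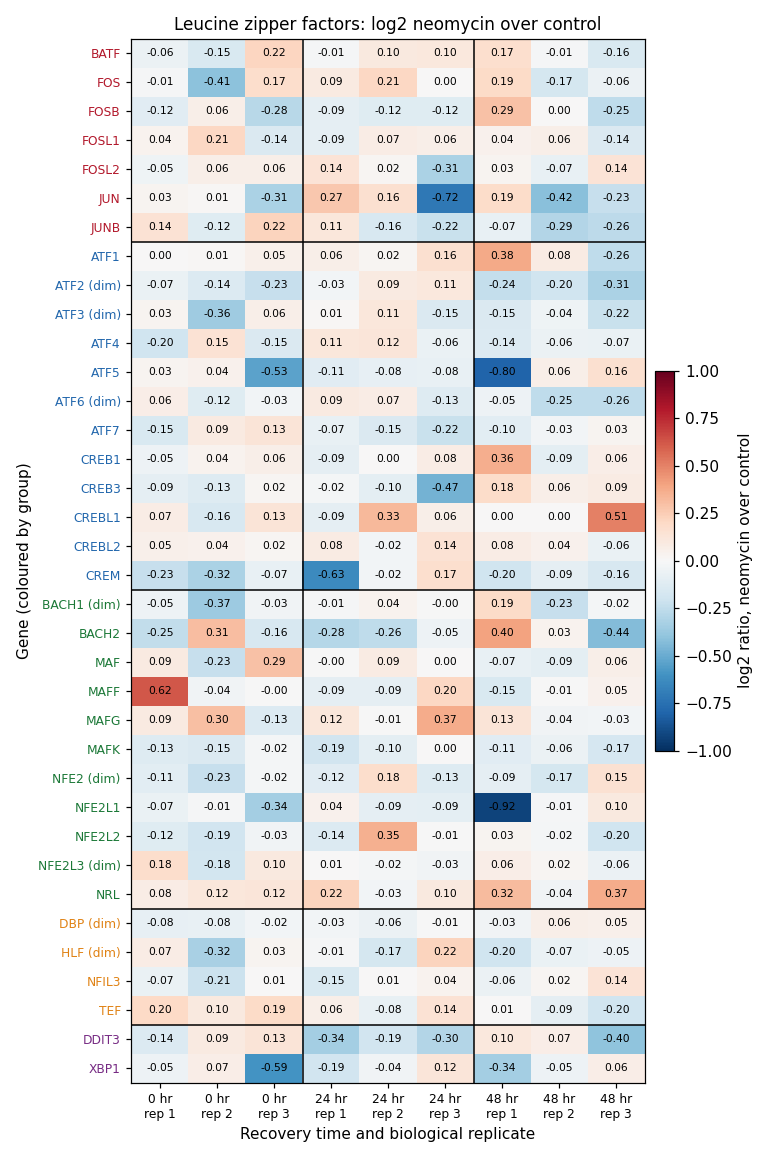
The log2 ratio of neomycin over control of all 36 members (rows, coloured by group) in the 9 biological replicates (columns, by recovery time), with the value printed in each cell and blue below 0. Members under the brightness filter are marked dim; the lowest cell is NFE2L1 in 48 hr replicate 1 (-0.92) and the highest MAFF in 0 hr replicate 1 (0.62).

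As a group the 28 tested members were near 0 at each time point. Their median ratio took the values 0.0072, -0.019 and -0.026 at 0, 24 and 48 hr, beside -0.0052, 0.0041 and 0.0076 over all tested probes. The fitted ratios of the members ran from -0.21 (CREM) to 0.20 (MAFF) at 0 hr, from -0.28 (DDIT3) to 0.16 (MAFG) at 24 hr and from -0.28 (NFE2L1) to 0.22 (NRL) at 48 hr. The median SD between replicates of a time point was 0.12 for the members and 0.13 for all tested probes. The median member's 95% interval reached 0.20 to either side of its ratio. A 1.2-fold change is 0.263 on this scale. All 3 replicates had the same sign for 8 of 28 members at 0 hr (27.7% of all tested probes did), 8 of 28 at 24 hr (29.3%) and 6 of 28 at 48 hr (28.5%). All 9 replicates had the same sign for 0 of 28 members (2.34%).

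**Figure D3:**
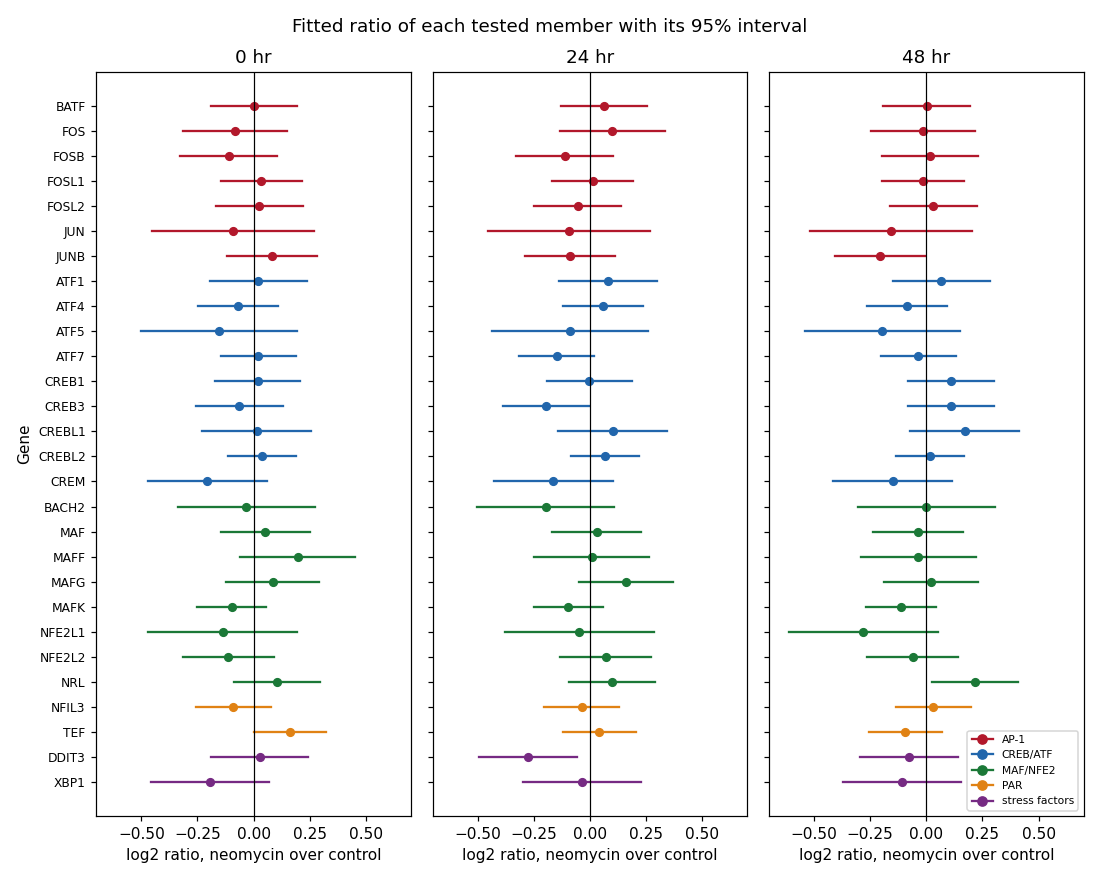
Fitted log2 ratio of neomycin over control (points) of the 28 tested members at 0, 24 and 48 hr (panels), with the 95% interval from limma (lines), coloured by group. Nearly all intervals cross 0; those that do not are TEF at 0 hr, DDIT3 and CREB3 at 24 hr, and JUNB and NRL at 48 hr, before adjustment for the number of probes.

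The AP-1 genes had medians of 0.00029, -0.054 and -0.014 at 0, 24 and 48 hr over the 7 members. In single replicates the AP-1 median ran from -0.16 to 0.17. FOS, the rapidly induced subunit of AP-1, had ratios of -0.014, -0.41 and 0.17 in the 3 replicates at 0 hr, 0.092, 0.21 and 0.0029 at 24 hr, then 0.19, -0.17 and -0.056 at 48 hr. The replicates overlapped between all time points, and the mean over time was 0.00067 (SE 0.062, limma adjusted p = 0.996). JUN, the classical partner of FOS, spread more widely, with 0.028, 0.0084 and -0.31 at 0 hr, 0.27, 0.16 and -0.72 at 24 hr, then 0.19, -0.42 and -0.23 at 48 hr. Its SD at 24 hr was 0.54, set by replicate 3 alone. Its mean over time was -0.11 (SE 0.096, limma adjusted p = 0.669). At 24 hr the dye orientations of JUN had opposite signs, with -0.46 for neomycin RNA in Cy3 and 0.27 in Cy5. Both were below 0 at 0 and 48 hr.

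JUNB had 0.14, -0.12 and 0.22 at 0 hr, 0.11, -0.16 and -0.22 at 24 hr, then -0.072, -0.29 and -0.26 at 48 hr. The 3 replicates of 48 hr were thus all below 0, and the 2 lowest lay below every replicate of 0 hr. At 48 hr the fitted ratio was -0.21 (SE 0.092, limma unadjusted p = 0.043, adjusted p = 0.631). The difference of 48 against 0 hr was -0.29 (SE 0.13, limma unadjusted p = 0.046, adjusted p = 0.998). These values joined opposite readings of the 2 dye orientations. With neomycin RNA in Cy3 the JUNB ratio was 0.47, 0.45 and 0.18 at 0, 24 and 48 hr, and with neomycin RNA in Cy5 it was -0.31, -0.63 and -0.59. The gap between the orientations at 24 hr, 1.07, was larger than that of 99.1% of all tested probes. The brightness of JUNB and its spots at the scanner's ceiling stand beside this gap, and their part in it was not tested.

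Of the other AP-1 genes, FOSB, a FOS family member, had all 3 replicates below 0 at 24 hr (-0.090, -0.12 and -0.12), with a fitted ratio of -0.11 (SE 0.099, limma adjusted p = 0.870). At 48 hr its replicates ran from -0.25 to 0.29. FOSL1, FOSL2 and BATF, the remaining FOS-like proteins and a partner of JUN best known from lymphocytes, had fitted ratios from -0.054 to 0.063 at the 3 time points. The lowest of these was FOSL2 at 24 hr and the highest BATF at 24 hr.

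The CREB/ATF genes had medians of 0.014, -0.0028 and 0.018 at 0, 24 and 48 hr over the 9 tested members. In single replicates their median ran from -0.073 to 0.062. CREM, a cyclic AMP responsive factor with activating and repressing forms, had the lowest mean over time of all members. Its replicates were -0.23, -0.32 and -0.073 at 0 hr, -0.63, -0.024 and 0.17 at 24 hr, then -0.20, -0.087 and -0.16 at 48 hr. In 8 of 9 replicates it was below 0, the exception being 24 hr replicate 3. ATF1 was above 0 in 8 of 9. The share of all tested probes with 8 of 9 replicates of the same sign was not counted. The mean of CREM was -0.17 (SE 0.070, limma unadjusted p = 0.029, adjusted p = 0.332), and at 0 hr the ratio was -0.21 (SE 0.12, adjusted p = 0.870). The dye orientations had opposite signs at each time point. With neomycin RNA in Cy3 CREM was at 0.049, -0.33 and 0.031 at 0, 24 and 48 hr, and with neomycin RNA in Cy5 at -0.46, 3.0e-04 and -0.33. Without 24 hr replicate 1 its mean over time was -0.095.

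CREB3, a membrane-bound factor released by cleavage, lay below 0 at 24 hr and above 0 at 48 hr, a difference that did not pass the test. Its replicates were -0.087, -0.13 and 0.023 at 0 hr, -0.017, -0.10 and -0.47 at 24 hr, then 0.18, 0.061 and 0.085 at 48 hr. The groups of 24 and 48 hr did not overlap, and their signs were opposite, as for 21 of 1281 tested probes (1.64%). Groups without overlap arose elsewhere too, as for CREB3 at 0 and 48 hr and for BACH1 at 0 and 24 hr. How many of all tested probes had such groups, as here and for ATF2, TEF and DDIT3 below, was not counted. Nothing is drawn from them. The values of CREB3 follow. At 24 hr the ratio was -0.20 (SE 0.089, limma unadjusted p = 0.047, adjusted p = 0.797). The difference of 48 against 24 hr was 0.31 (SE 0.13, limma unadjusted p = 0.031, adjusted p = 0.999). Without 24 hr replicate 3, the lowest, the ratio at 24 hr was -0.059 and the difference 0.17 (limma unadjusted p = 0.15, adjusted p = 0.992). At 48 hr the orientations differed, with 0.32 for neomycin RNA in Cy3 and -0.10 for neomycin RNA in Cy5.

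ATF4, the main effector of the integrated stress response, had -0.20, 0.15 and -0.15 at 0 hr, 0.11, 0.12 and -0.063 at 24 hr, then -0.14, -0.056 and -0.066 at 48 hr. The 48 hr replicates were all below 0 and lay within the range of those at 0 hr. Its mean over time was -0.033 (SE 0.047, limma adjusted p = 0.809). CREB1, the founding cyclic AMP response factor, had -0.049, 0.038 and 0.062 at 0 hr, -0.086, 0.0021 and 0.076 at 24 hr, then 0.36, -0.094 and 0.063 at 48 hr. No time point stood apart, and the mean was 0.042 (SE 0.050, limma adjusted p = 0.788). CREBL1, an older name of the ATF6-related factor ATF6B, had 0.072, -0.16 and 0.13 at 0 hr, -0.086, 0.33 and 0.062 at 24 hr, then 0.0025, 0.0032 and 0.51 at 48 hr. Its 48 hr ratio of 0.17 (SE 0.11, limma unadjusted p = 0.15, adjusted p = 0.797) came from replicate 3 alone.

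ATF2, a target of the stress kinases JNK and p38 and a partner of JUN, was too dim to be tested, at a brightness of 484. Its replicates were -0.068, -0.14 and -0.23 at 0 hr, -0.027, 0.093 and 0.11 at 24 hr, then -0.24, -0.20 and -0.31 at 48 hr. The 48 hr replicates all lay below those of 24 hr. In the fit without the filter, over all 1507 gene probes, its ratio at 48 hr was -0.25 (SE 0.071, limma unadjusted p = 0.0037, adjusted p = 0.596), and the difference of 48 against 24 hr was -0.31 (SE 0.10, limma unadjusted p = 0.0088, adjusted p = 0.998). These were the smallest unadjusted p-values of any member at 48 hr and for 48 against 24 hr, with the dim members included. At 48 hr both orientations were below 0, at -0.25 for neomycin RNA in Cy3 and -0.26 in Cy5. At 0 hr they had opposite signs, with 0.076 in Cy3 and -0.37 in Cy5, and at 24 hr they gave 0.11 and 0.0020.

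ATF3, an early gene of the stress response, was dim as well, with 0.027, -0.36 and 0.062 at 0 hr, 0.0092, 0.11 and -0.15 at 24 hr, then -0.15, -0.040 and -0.22 at 48 hr. In the fit without the filter its mean over time was -0.078 (SE 0.053, limma adjusted p = 0.615). ATF6, a sensor of unfolded protein, was the dimmest CREB/ATF member, with a 48 hr ratio of -0.19 in that fit (SE 0.078, limma unadjusted p = 0.032, adjusted p = 0.613). Of the rest, ATF7, a close relative of ATF2, had all 3 replicates below 0 at 24 hr (-0.073, -0.15 and -0.22), with limma adjusted p = 0.822. ATF5, related to ATF4, was near 0 in most replicates but at -0.53 in 0 hr replicate 3 and -0.80 in 48 hr replicate 1. The fitted ratios of ATF1 and CREBL2, a CREB relative and a CREB-like factor, lay between 0.018 and 0.081.

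**Figure D4:**
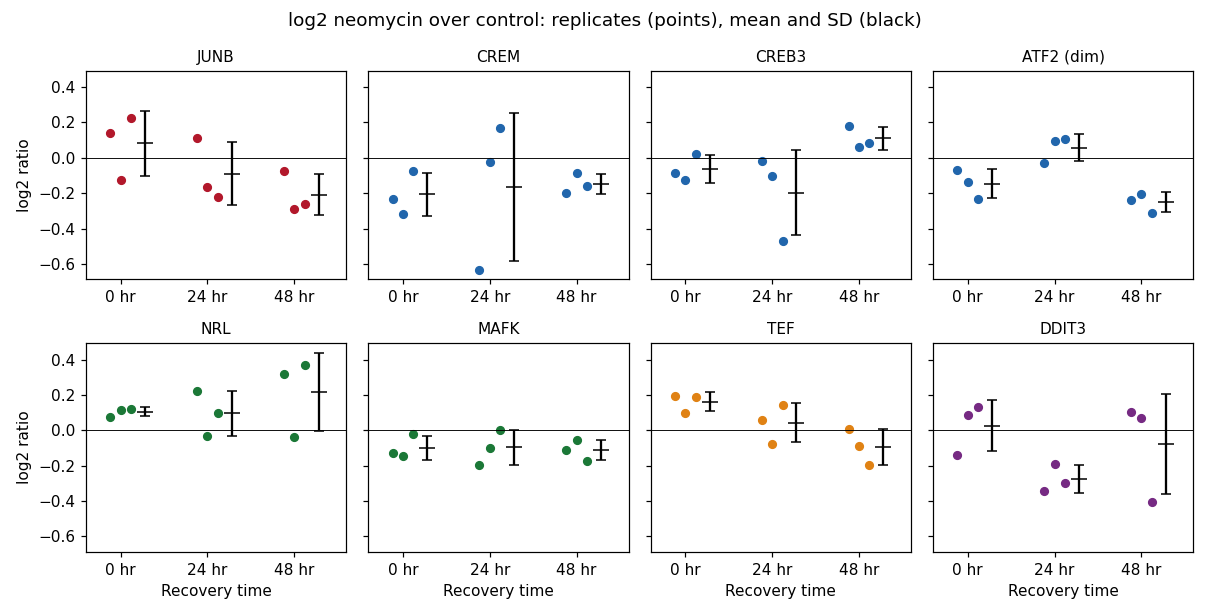
The log2 ratio of neomycin over control (vertical axis) at 0, 24 and 48 hr (horizontal axis) of 8 members, each point a biological replicate, with the mean and SD (n = 3) in black beside them. The 48 hr replicates of JUNB and ATF2 and the 24 hr replicates of DDIT3 are all below 0, and none of these passed the test after adjustment.

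The MAF/NFE2 genes had medians of 0.0097, 0.018 and -0.037 at 0, 24 and 48 hr over the 8 tested members. In single replicates their median ran from -0.060 to 0.0087. NRL, a large MAF protein known in mammals for setting the fate of rod photoreceptors, had the highest mean over time of all members. Its replicates were 0.077, 0.12 and 0.12 at 0 hr, 0.22, -0.030 and 0.096 at 24 hr, then 0.32, -0.037 and 0.37 at 48 hr. It was above 0 in 7 of 9 replicates, the exceptions being replicate 2 at 24 and at 48 hr. CREBL1 and CREBL2 were above 0 in 7 of 9 as well, and the share of all tested probes was not counted. The mean of NRL was 0.14 (SE 0.051, limma unadjusted p = 0.017, adjusted p = 0.261), and the ratio at 48 hr was 0.22 (SE 0.088, limma unadjusted p = 0.029, adjusted p = 0.597). Its mean over time was 0.14 in either dye orientation, but at 0 hr the orientations gave -0.041 with neomycin RNA in Cy3 and 0.25 in Cy5.

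Of the small MAF proteins, which lack an activation domain of their own, MAFK was below 0 in 8 of 9 replicates. These were -0.13, -0.15 and -0.020 at 0 hr, -0.19, -0.098 and 0.0021 at 24 hr, then -0.11, -0.057 and -0.17 at 48 hr. The mean was -0.10 (SE 0.041, limma unadjusted p = 0.028, adjusted p = 0.322), a fold of 1.07. As for CREM, the share of all tested probes with 8 of 9 replicates of the same sign was not counted. MAFG lay on the other side of 0 in its mean. Its replicates were 0.088, 0.30 and -0.13 at 0 hr, 0.12, -0.0075 and 0.37 at 24 hr, then 0.13, -0.038 and -0.028 at 48 hr. At 24 hr its ratio was 0.16 (SE 0.096, limma unadjusted p = 0.119, adjusted p = 0.824). MAFF had 0.62, -0.036 and -0.0033 at 0 hr, -0.091, -0.092 and 0.20 at 24 hr, then -0.15, -0.0060 and 0.046 at 48 hr. The single high replicate at 0 hr carried its ratio of 0.20 there (SE 0.12, limma adjusted p = 0.883), which was -0.019 without that replicate.

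NFE2L2, the master activator of antioxidant genes, had -0.12, -0.19 and -0.033 at 0 hr, -0.14, 0.35 and -0.0054 at 24 hr, then 0.029, -0.016 and -0.20 at 48 hr. The 0 hr replicates were all below 0 and overlapped those of the other time points. Its mean was -0.035 (SE 0.054, limma adjusted p = 0.812). NFE2L1, which drives proteasome genes, had -0.065, -0.011 and -0.34 at 0 hr, 0.042, -0.090 and -0.094 at 24 hr, then -0.92, -0.013 and 0.096 at 48 hr. Its ratio at 48 hr was -0.28 (SE 0.15, limma unadjusted p = 0.091, adjusted p = 0.715), and 0.042 without replicate 1. MAF, the large MAF protein of lens and other tissues, had 0.092, -0.23 and 0.29 at 0 hr, -0.00021, 0.085 and 0.0035 at 24 hr, then -0.075, -0.094 and 0.057 at 48 hr. No time point stood apart, and the mean was 0.015 (SE 0.053, limma adjusted p = 0.929).

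BACH2, a repressor best known from B cells, was among the brighter members and varied widely, from -0.25 to 0.31 at 0 hr, from -0.28 to -0.051 at 24 hr and from -0.44 to 0.40 at 48 hr. At 24 hr its replicates were all below 0 (ratio -0.20, SE 0.14, limma adjusted p = 0.855). There the orientations gave 0.14 for neomycin RNA in Cy3 and -0.54 in Cy5. The dim BACH1, a haem-sensing repressor, had its largest ratio at 0 hr, -0.15, and NFE2, the blood cell member of the group, at 0 hr as well, -0.12, both in the fit without the filter. NFE2L3, a relative of NFE2L1 and also dim, stayed between -0.016 and 0.031.

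Among the PAR genes, TEF, an activator of rhythmic genes, lay above 0 in all 3 replicates at 0 hr. They were 0.20, 0.099 and 0.19 at 0 hr, 0.057, -0.075 and 0.14 at 24 hr, then 0.0052, -0.088 and -0.20 at 48 hr. All 0 hr replicates were above all 48 hr replicates. The ratio at 0 hr was 0.16 (SE 0.074, limma unadjusted p = 0.049, adjusted p = 0.736), and the difference of 48 against 0 hr was -0.25 (SE 0.10, limma unadjusted p = 0.031, adjusted p = 0.998). At 48 hr the orientations gave 0.051 with neomycin RNA in Cy3 and -0.24 in Cy5. Its Cy5 signal was near the local background, as given above. NFIL3, which represses from the same sites that the PAR activators bind, had -0.068, -0.21 and 0.0065 at 0 hr, -0.15, 0.0053 and 0.037 at 24 hr, then -0.061, 0.016 and 0.14 at 48 hr. Its mean was -0.032 (SE 0.044, limma adjusted p = 0.805). The 2 other PAR activators, DBP and HLF, were dim, with ratios from -0.10 (HLF at 48 hr) to 0.026 (DBP at 48 hr) in the fit without the filter.

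DDIT3, known as CHOP, a factor of prolonged stress in the endoplasmic reticulum that promotes cell death, had -0.14, 0.088 and 0.13 at 0 hr, -0.34, -0.19 and -0.30 at 24 hr, then 0.10, 0.067 and -0.40 at 48 hr. Its 24 hr replicates were all below those of 0 hr and overlapped those of 48 hr, where replicate 3 was lowest. At 24 hr the ratio was -0.28 (SE 0.10, limma unadjusted p = 0.017, adjusted p = 0.797), a fold of 1.21, and it was below 0 in both dye orientations (-0.17 with neomycin RNA in Cy3 and -0.38 in Cy5). Under 14 of the 28 alternatives that gave DDIT3 a value it was no longer past both limits, 1.2-fold and an unadjusted p under 0.05, among them no background correction, the plain mean over arrays, either orientation alone and the omission of 24 hr replicate 1 or 3, while its ratio stayed between -0.46 and -0.17. The difference of 24 against 0 hr was -0.30 (SE 0.14, limma unadjusted p = 0.054, adjusted p = 0.997). XBP1, the other gene grouped here as a stress factor, had -0.053, 0.065 and -0.59 at 0 hr. Its ratios were -0.19, -0.037 and 0.12 at 24 hr, then -0.34, -0.050 and 0.063 at 48 hr. Replicate 3 alone carried its 0 hr ratio of -0.19 (SE 0.12, limma adjusted p = 0.901), which was 0.0060 without that replicate.

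The 2 dye orientations were next set side by side for each member. They gave ratios of the same sign for 12 of 28 members at 0 hr (45.2% of all tested probes did), 13 of 28 at 24 hr (45.8%) and 8 of 28 at 48 hr (40.6%). CREBL1 was above 0 in both at all 3 time points, but only at 0.013 and 0.015 at 0 hr. NRL was above 0 in both at 24 and 48 hr, and MAF and MAFG at 0 and 24 hr. DDIT3 was below 0 in both at 24 and 48 hr. So were FOSB, CREB3 and NFE2L1 at 0 and 24 hr, and JUN, MAFK and XBP1 at 0 and 48 hr. Such repeats were not counted over all tested probes. Across the 28 members the ratios of both orientations correlated at r = -0.36, -0.40 and -0.20 at 0, 24 and 48 hr, against -0.12, -0.29 and -0.13 over all tested probes. The points of such a correlation share their arrays.

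**Figure D5:**
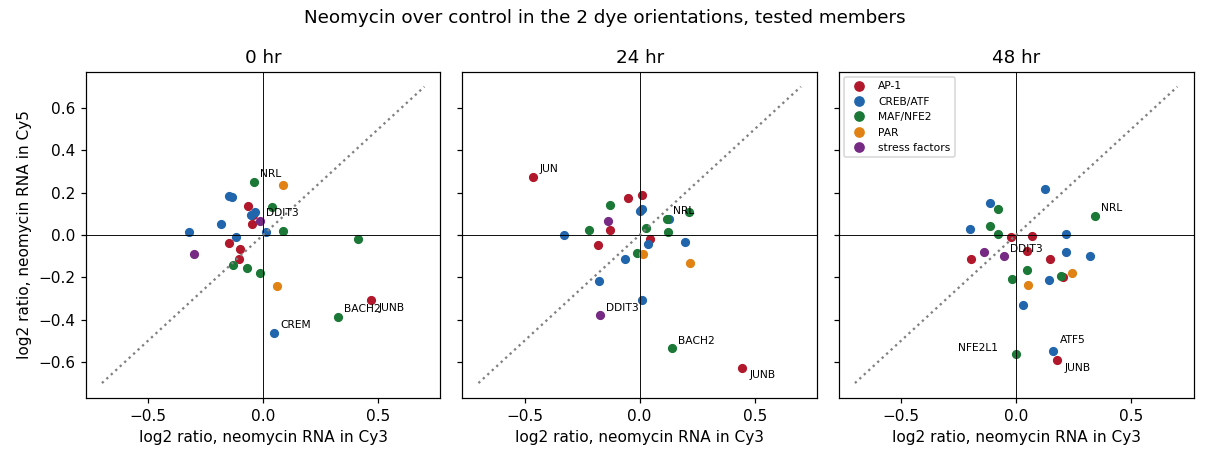
The log2 ratio of neomycin over control of the 28 tested members from arrays with the neomycin RNA in Cy3 (horizontal axis) and in Cy5 (vertical axis), at 0, 24 and 48 hr (panels). The dotted line marks equal values; JUNB lies far to the lower right, at 0.47 and -0.31 at 0 hr and 0.45 and -0.63 at 24 hr.

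Of 18 listed genes upstream of these factors or working with them (SRF and its partners of the ELK kind, the EGR genes, the coactivators CREBBP and EP300 and others), 15 were on the array and tested. In limma 0 of 15 passed the adjusted test at each time point. At the limits of 1.2-fold and an unadjusted p under 0.05, 1 was lower at 0 hr, CROC4, at -0.30 (SE 0.11, limma adjusted p = 0.609), and 1 was higher at 48 hr, ELK3, an SRF partner, at 0.31 (SE 0.10, limma adjusted p = 0.597). Of all tested probes 3.12% and 2.89% were past these limits in either direction at 0 and 48 hr. Their medians were -0.023, -0.019 and -0.024 at 0, 24 and 48 hr. The 3 CEBP genes on the array had 0 calls as well, with medians of -0.032, -0.069 and -0.16.

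Marker genes of the cell types a utricle sample could hold passed no adjusted test either. Of the hair cell list 4 of 5 were on the array and 2 passed the brightness filter, with ratios between -0.041 and 0.045. Of the genes that define these epithelia, SOX2, a supporting cell factor, had a brightness of 1746 and ATOH1, which starts hair cell fate, 800, while POU4F3 of hair cells (446) and PROX1 of supporting cells (420) were under the filter. The 4 tested supporting cell markers ran from -0.13 to 0.21, the 5 stromal ones from -0.22 to 0.22, the 5 neuronal ones from -0.19 to 0.34 and the 4 blood ones from -0.21 to 0.18, with 0 calls in limma. These were 4 of 7, 5 of 11, 5 of 6 and 4 of 7 listed names, which include alternative names of the same gene. Probes under some older symbols, such as PMX1 for the listed PRRX1, were not matched to the lists. POU4F1, a factor of sensory neurons, was at 0.34 at 24 hr (SE 0.13, limma unadjusted p = 0.021, adjusted p = 0.797). The part of any cell type in the members' ratios was not tested.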

How the data were processed

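The study's authors scanned each array in Cy3 and Cy5 and quantified it with ImaGene (version 4.1, per the file headers); the deposited intensity of each spot was its mean foreground and mean local background. The authors' deposited series table holds uncentred log2 foreground ratios, equal to those turned to neomycin over control by the header names, and was an alternative here. Spots (3072 per array, each member on 2) were corrected with normexp (offset 50), normalized by loess within arrays and averaged by probe, orientation and replicate, both orientations weighing equally; 8 marked spots on 2 arrays were left out. The dimmest 15% of gene probes were removed. limma 3.58.1 (R 4.3.3) fitted 9 replicate values with 1 coefficient per time point and Benjamini-Hochberg adjustment over 1281 probes; it was tested on simulated data. Same-numbered replicates were not paired by the labels.

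Named members were the 2 with the smallest p in each direction at each time point, the 4 in the mean, 1 in each difference, and, by name, FOS, JUN, JUNB, ATF2, ATF3, ATF4, CREB1, CREBL1, NFE2L1, NFE2L2, MAF, MAFF, NFIL3, XBP1 and DDIT3. Members and lists were chosen with earlier results of these data known, and ATF6, ATF7, FOSB, ATF5 and BACH2 were given values after these were seen. Probe sequences were not used here. Alternatives covered background, normalization, filters, orientation, blocks and left-out replicates. The precision is limited by the 3 biological replicates at each time point, since arrays were averaged before the test.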

Additional observations from a re-analysis of the deposited data

Results flagged for a closer look

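CREB3 was singled out because all 3 replicates at 24 hr lay below 0 and all 3 at 48 hr above it. The difference of 48 against 24 hr was 0.31 (SE 0.13), with a mean of -0.20 at 24 hr and 0.11 at 48 hr, and limma gave an unadjusted p of 0.031 and an adjusted p of 0.999. Such opposite signs between 24 and 48 hr were found for 21 of 1281 tested probes (1.64%). Leaving out replicates singly gave a difference from 0.17 to 0.40, the lowest without 24 hr replicate 3 (limma unadjusted p = 0.15), where the 24 hr mean was -0.059. Groups of 3 were not tested for outliers.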

How the results depend on the processing

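In limma, the counts of members past the adjusted threshold were 0 at 0, 24 and 48 hr, in the mean and between time points, and stayed 0 under every alternative run, including the filter on brightness after background correction, an alternative chosen after seeing the data, under which 33 members were tested, ATF2 among them. At the limits of 1.2-fold and an unadjusted p under 0.05, each count of members below is followed by the share of all tested probes under that setting. The 0 members of 0 hr became 1 with median centring of each array (NFE2L2, 3.9%) and 1 with only arrays of neomycin RNA in Cy3 (title digit 3; JUNB, 2.5%). Leaving out replicates singly gave 0 to 2, the 2 arising without 0 hr replicate 2 (MAFF and XBP1, 7.42%). The 1 member of 24 hr, DDIT3, was replaced by 3 others with plain background subtraction (CREB1, CREB3 and MAFG, 4.22%). With either orientation alone it was replaced by JUNB (6.4% for each), in opposite directions. JUNB was at 0.45 with title digit 3 and at -0.63 with title digit 5. The count was 0 with no background correction, median centring, scale normalization between arrays, only probes of brightness 800 or more (6 members tested), the plain mean over arrays, series matrix values, all arrays as independent, either random block, and the methods' test over hybridisations, where shares ran from 0.625% to 5.17%. Leaving out replicates singly gave 1 each time, but CREB3 without 24 hr replicate 1 (3.9%) and CREM without 24 hr replicate 3 (2.03%). The 0 members of 48 hr became 5 with plain background subtraction (10.3%), 1 with title digit 3 (6.64%), 2 with title digit 5 (neomycin RNA in Cy5, 5.31%) and 1 without the 4 arrays whose brightness pattern differed (4.37%). Single omissions gave 0 to 2 there, namely 1 when 48 hr replicate 1 was dropped (5.15%), 2 for replicate 2 (5.93%) and 1 for replicate 3 (3.2%). With the replicate number as a block, the counts were 0, 1 and 0, and no call changed; deviations of same-numbered replicates correlated from -0.11 to 0.19, over 0.1 in 2 of 9 pairs, so that the numbers were not taken to pair the samples.

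Of 873 re-fitted values of named members, 841 kept their sign and side of the threshold and 32 changed sign. Sign changes with title digit 3 were CREM at 0 hr (0.049), JUNB at 48 hr (0.18) and in the mean (0.36), NFE2L1 at 48 hr (0.00060), NFE2L2 (0.034), NFIL3 (0.11) and FOS (-0.014) in the mean. With title digit 5 they were MAFF at 0 hr (-0.020), and JUN (0.041) and ATF4 (0.063) in the mean. When replicates were dropped singly, MAFF ran from -0.019 to 0.31 at 0 hr and from -0.016 to 0.094 in the mean, XBP1 from -0.32 to 0.0060 at 0 hr, NFE2L1 from -0.47 to 0.042 at 48 hr, and in the mean CREB1 from -4.1e-04 to 0.076, MAF from -0.025 to 0.061 and FOS from -0.042 to 0.055. Plain background subtraction turned FOS (-0.016) and CREB1 (-0.16), median centring FOS (-0.037) and MAF (-0.016), print-tip loess JUNB (0.021), no background correction NFIL3 (0.0061) and series matrix values NFIL3 (0.026), all in the mean. FOS was also turned with all arrays as independent (-0.0095), the replicate (-0.0094) or the day (-0.0058) as random block, and the methods' test over hybridisations (-0.014). Of 516 re-fitted group medians, 437 were counted as the same and 79 as moved. When replicates were dropped singly, the AP-1 median ran from -0.12 to 0.043 at 24 hr and from -0.11 to 0.0083 at 48 hr. The causes were not tested. The dim signal of most members and the poor match of the dye orientations limit what these arrays can show.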
